A study of Mus musculus with 8 samples.

Results

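A set of 8 genes that mark regulatory T (Treg) cells or carry out their functions was followed through immune cells of a mouse ependymoma. They were chosen by symbol, Foxp3, Il2ra, Ikzf2, Ikzf4, Icos, Areg, Itgb8 and Lrrc32, and are 8 of the 33696 genes in each expression matrix. All mice were of the EPZFTA-RELA line (NestinCreERT2;Fus1;RFPTdT), a model of ependymoma carrying the ZFTA-RELA fusion oncogene, in which Cre is driven by the promoter of Nestin, a gene of neural stem cells and not of immune cells. Mice with tumors were assigned by chance, at 3 weeks of age, to 1 intrathecal dose of 5 mg/kg mavrilimumab, which blocks GM-CSF receptor alpha, or to control antibody (vehicle IgG), and were followed to a humane endpoint. Tumor and brain were taken at 6 to 8 weeks of age per the labels, and the study describes the cells as coming from recurrent tumors; how the ages and recurrence go together is not given in the sources used here. Samples were dissociated, and leukocytes were sorted on CD45 and on Ter119, which marks erythroid cells, and run on the 10x 5′ platform in 4 expression libraries, 2 per group. The study pooled tumors within a group. Barcodes passed with at least 1000 UMIs (unique molecular identifiers, counts of captured transcripts), 200 to 6000 genes and no more than 10% of UMIs from mitochondrial genes. They were placed in 6 classes by UMIs of genes that are not among the 8: CD8 T cells, CD4 T cells (Cd3e, Cd4 and no Cd8a or Cd8b1), gamma-delta T cells, NK cells, innate lymphoid cells (ILC; no Cd3e, Il7r, and Gata3 or Rora) and microglia.

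Foxp3 encodes the forkhead transcription factor that fixes the Treg program, and Ikzf2 (Helios) and Ikzf4 (Eos) encode Ikaros-family zinc finger factors found with it in Treg cells. Il2ra (CD25) is the high-affinity chain of the interleukin-2 receptor, and Icos is a costimulatory receptor of activated T cells. Areg (amphiregulin) is an EGF receptor ligand with a role in tissue repair, Itgb8 pairs with the alpha-v chain in an integrin that activates latent TGF-beta, and Lrrc32 (GARP) tethers latent TGF-beta to the Treg surface. Several of them are used by other cells too: group 2 ILC use Il2ra, Icos and Areg, and activated T cells use Il2ra, Icos and Ikzf2.

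RefSeq promoter windows, the 250 bases before an annotated start (GRCm38.p6, read on the gene's strand), were at hand for 4 of the 8 genes in 5 windows. The 3 below belong to the gene that divides the CD4 T cells here (Foxp3, chrX:7579426-7579675, + strand), to the gene with the lowest FDR in the comparison by Foxp3 (Il2ra, chr2:11642542-11642791, + strand) and to the gene whose UMIs lay mostly in ILC in 3 of the 4 libraries (Areg, chr5:91139349-91139598, + strand). Capitals mark matches, on either strand, to TATAAA or TGACGTCA; TTCNNNGAA and TGTTTAC were searched as well.
Foxp3: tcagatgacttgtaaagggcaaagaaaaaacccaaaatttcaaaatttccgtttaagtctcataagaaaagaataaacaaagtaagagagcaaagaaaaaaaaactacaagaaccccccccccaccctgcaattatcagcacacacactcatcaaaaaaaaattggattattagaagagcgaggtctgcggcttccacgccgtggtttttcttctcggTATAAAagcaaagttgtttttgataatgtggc
Il2ra: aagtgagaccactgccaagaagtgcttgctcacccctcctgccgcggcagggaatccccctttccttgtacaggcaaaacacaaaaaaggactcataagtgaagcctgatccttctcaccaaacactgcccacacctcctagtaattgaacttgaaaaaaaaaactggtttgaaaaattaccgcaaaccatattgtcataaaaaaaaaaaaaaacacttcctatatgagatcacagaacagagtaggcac
Areg: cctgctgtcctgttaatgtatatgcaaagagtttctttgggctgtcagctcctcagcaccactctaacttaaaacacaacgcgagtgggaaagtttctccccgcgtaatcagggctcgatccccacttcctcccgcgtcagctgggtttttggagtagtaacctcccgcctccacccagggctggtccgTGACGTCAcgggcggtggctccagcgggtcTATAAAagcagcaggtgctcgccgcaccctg
TATAAA began 32 bases before the Foxp3 start and 31 bases before the Areg start, and 12.4% of 32851 windows of the same length hold it. TGACGTCA, the cAMP response element, began 61 bases before the Areg start and is in 1.55% of windows. The Il2ra window held none of the 4 motifs. TTCNNNGAA, a STAT-type motif in 7.02% of windows, was in the other Foxp3 window alone among the 5 windows, and TGTTTAC, a forkhead-type motif in 3.17% of windows, was in none of them.

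The libraries differed in size and depth. The files held 24354457 to 148657643 UMIs, and 984 and 26746 cells were kept for vehicle IgG 1 and 2 and 6412 and 5490 for mavrilimumab 1 and 2, with a median of 3296 to 11759 UMIs per cell. CD4 T cells numbered 101, 117, 1762 and 414 in that order. Libraries shared 0 to 60 cell barcodes. Cells here are barcodes that passed the limits on UMIs and genes. The study's methods set an upper limit on the cells loaded per sample. The 26746 barcodes kept in vehicle IgG 2 lie above that limit, so not all of them can be cells if it held. How many were not cells was not tested. Counts and shares of kept cells, or of cells in no class, carry this doubt in vehicle IgG 2. In vehicle IgG 2, 22023 cells met no class rule, and its CD4 T cells carried 1563 CPM (UMIs of a gene scaled to the same total in every sum of cells) of 7 neural or tumor genes together, against 4.22 to 35.3 CPM in the other libraries. T cell receptor (TCR) libraries from the same study gave a check of the labels. In 3 of 3 of them the sample name inside the file named the other treatment than the label, and barcodes of the library labelled mavrilimumab TCR 1 matched the cells labelled mavrilimumab 2 (2491 of 2749), those of mavrilimumab TCR 2 the cells labelled mavrilimumab 1 (4867 of 5659) and those of vehicle IgG TCR 1 the cells labelled vehicle IgG 1 (182 of 193). Libraries are named by their labels, and every treatment direction given here depends on them. CD8 T cells, which the class rule finds without the 8 genes, were 7.11 and 6.63% of the cells of the libraries labelled vehicle IgG and 30.7 and 34.2% of those labelled mavrilimumab. The share of vehicle IgG 2 depends on its many cells of no class. By count, CD8 T cells were 70, 1773, 1967 and 1878, where 791, 4661, 4125 and 3573 cells were in exactly 1 class (vehicle IgG 1 and 2, mavrilimumab 1 and 2). These shares are not a check of the labels. The study gives its replicates as pooled experiments. How many tumors went into each library, and whether any mouse gave cells to both, is not given in the sources used here. The p-values therefore refer to these libraries alone. Those of edgeR, and its standard errors, also draw on a spread shared across genes. Intervals cover counting error only.

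Among the 6 classes, Foxp3 had its highest level in CD4 T cells in each library. Summed over the CD4 T cells of a library, its level was 104 CPM in vehicle IgG 1, 29.1 in vehicle IgG 2, 179 in mavrilimumab 1 and 92.6 in mavrilimumab 2. CD8 T cells held 1.96, 0, 13.8 and 1.74 CPM and gamma-delta T cells 0, 0, 21.0 and 3.70 CPM in the same order, so the ranges over libraries did not overlap between CD4 T cells and either class. The range of ILC (1.11 to 138 CPM) did overlap that of CD4 T cells. Below CD4 T cells the order of medians, gamma-delta T, CD8 T, ILC, microglia, NK, could not be told apart, since every pair of neighbors overlapped. CD4 T cells held 86.6% of the Foxp3 UMIs of all kept cells in vehicle IgG 1 (123 of 142), 51.8% in mavrilimumab 1 (1349 of 2604) and 64.2% in mavrilimumab 2 (339 of 528), but 10.5% in vehicle IgG 2 (10 of 95), where 76.8% were in cells of no class and 11.6% in ILC. Mavrilimumab 1 stood apart: Foxp3 was at 138 CPM in its ILC and 17.8 CPM in its microglia, against at most 1.51 and 0.925 CPM in the other libraries (ILC of vehicle IgG 1, 15 cells, left out), and barcodes of 1 to 100 UMIs, which hold free RNA, carried 111 CPM Foxp3 in that library and 1.92 to 5.31 CPM in the others. Of the 10 Foxp3-detected microglia of mavrilimumab 1, 8 had a T cell gene, 6 had Cd4, 7 also met another class rule and 7 had a TCR chain. The part of free RNA, and of T cells, in the levels outside CD4 T cells was not tested.

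**Figure D1:**
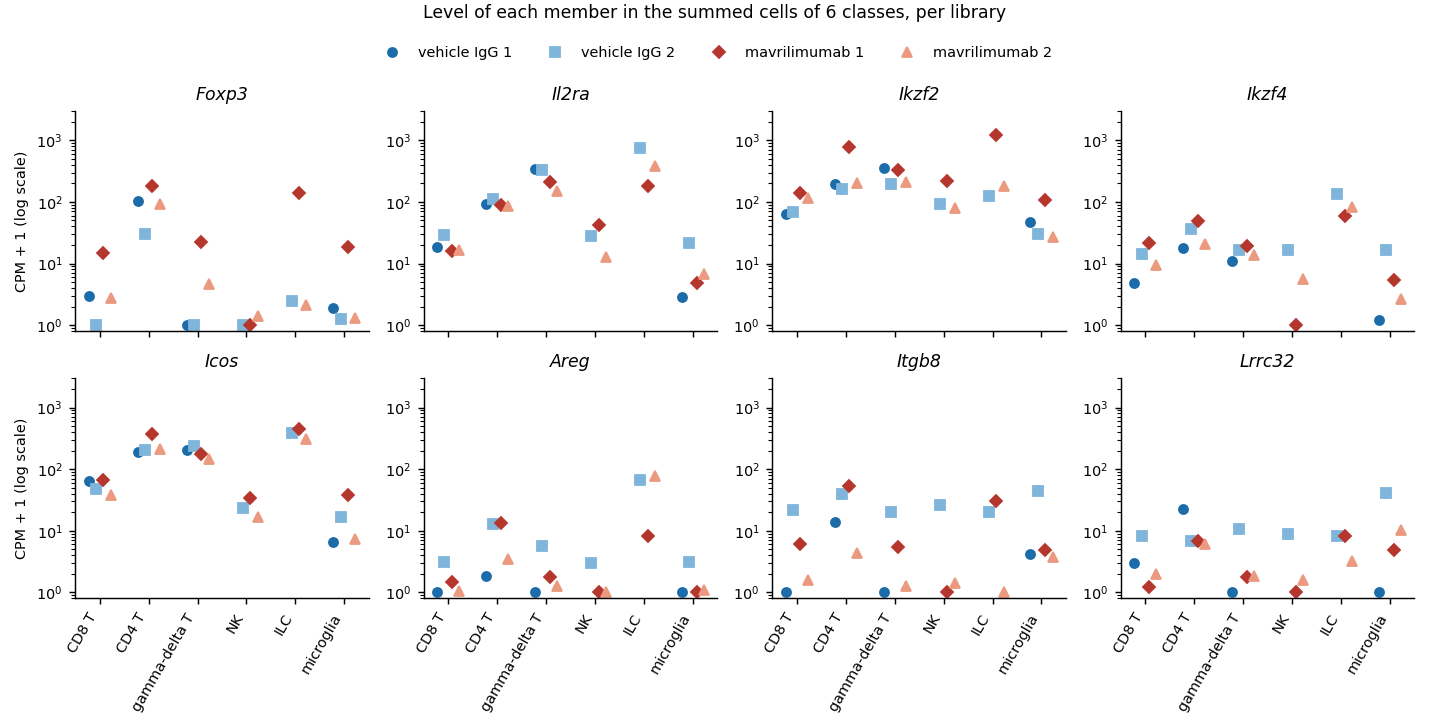
Level of each of the 8 genes, as CPM + 1 on a log axis, in the summed cells of each class; each point is 1 library and classes with under 20 cells are not drawn. Foxp3 is highest in CD4 T cells (29.1 to 179 CPM), Il2ra in gamma-delta T cells and ILC, and Areg in the ILC of vehicle IgG 2 and mavrilimumab 2.

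Foxp3 was detected in 12 of 101 CD4 T cells of vehicle IgG 1 (11.9%), 7 of 117 of vehicle IgG 2 (5.98%), 422 of 1762 of mavrilimumab 1 (24.0%) and 55 of 414 of mavrilimumab 2 (13.3%). The exact 95% intervals were 6.29 to 19.8%, 2.44 to 11.9%, 22.0 to 26.0% and 10.2 to 16.9%, so vehicle IgG 1 and mavrilimumab 2 overlapped widely. With every cell thinned to 1000 UMIs the shares were 5.94, 2.56, 12.9 and 7.0%. The share of vehicle IgG 2 was the least secure. Doublets were taken as the barcodes with the highest Scrublet scores, at a fixed 0.8% per 1000 barcodes, so the fraction removed grew with library size. This took 1 of 101, 24 of 117, 87 of 1762 and 11 of 414 CD4 T cells. Without them the vehicle IgG 2 share was 3.23% (3 of 93 cells), and at a minimum of 2 Foxp3 UMIs 1.71% (2 of 117). Thus 4 of its 7 cells were called doublets and 5 had a single Foxp3 UMI. In the other 3 libraries the shares were 12, 23.5 and 13.4% without doublets and 8.91, 16.9 and 11.1% at 2 UMIs. Microglia, which should lack the gene, gave 1.36, 0.154, 4.22 and 0.372%, below the CD4 T cells of the same library in each case (median UMIs 11383, 2056, 3537.5 and 8262.5 in CD4 T cells, 14232, 4891, 5756 and 11327.5 in microglia). Both mavrilimumab libraries lay above both vehicle IgG libraries, at 18.6 ± 7.54% against 8.93 ± 4.17% (mean ± SD, n = 2 each). The difference of 9.69 percentage points gave p = 0.33 in a two-sided exact permutation test, which is the smallest value 2 against 2 libraries allow, and it ranged from 4.35 without mavrilimumab 1 to 15 without mavrilimumab 2. Within the Foxp3-detected CD4 T cells the summed Foxp3 level was 903, 293, 667 and 693 CPM, with no separation of the treatments.

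**Figure D2:**
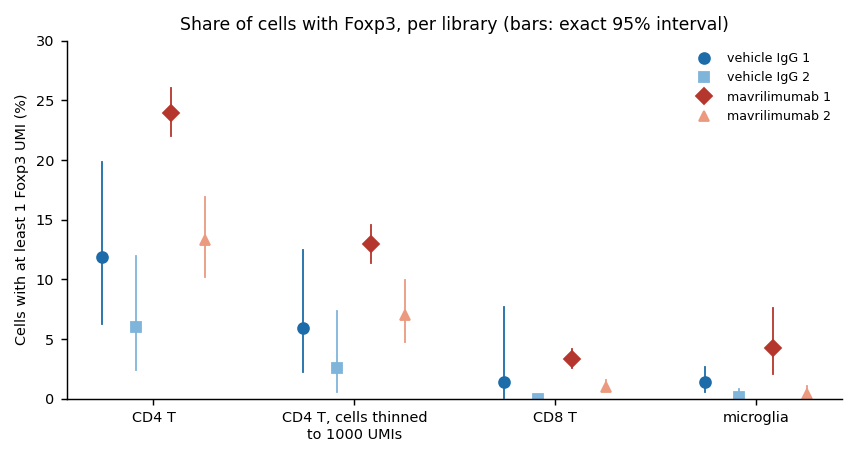
Share of cells with at least 1 Foxp3 UMI, in percent, for CD4 T cells, CD4 T cells thinned to 1000 UMIs, CD8 T cells and microglia; points are libraries and bars exact 95% intervals. The CD4 T cell shares run from 5.98 to 24.0%, and the intervals of vehicle IgG 1 and mavrilimumab 2 overlap.

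Not every cell with Foxp3 met the CD4 T rule, which needs a captured Cd4 UMI. CD4 T cells made up 46.2% of all Foxp3-detected cells in vehicle IgG 1 (12 of 26), 10.0% in vehicle IgG 2 (7 of 70), 45.9% in mavrilimumab 1 (422 of 919) and 49.1% in mavrilimumab 2 (55 of 112). Cells in no class held 419 of the 919 in mavrilimumab 1 and 32 of the 112 in mavrilimumab 2. Of these, 341 and 26 had Cd3e, 65 and 11 had Cd4, and 394 and 29 had Ikzf2, with a median of 2823 and 5464.5 UMIs. In vehicle IgG 2 the 56 Foxp3-detected cells of no class had Cd3e in 21 and a T cell gene in 32. The share of CD4 T cells with Foxp3 is thus a share of cells with Cd4 captured.

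Foxp3 also turned up in 65 CD8 T cells of mavrilimumab 1 and 19 of mavrilimumab 2. In mavrilimumab 1, 31 of the 65 also had Cd4, against 35 of the 1902 CD8 T cells without Foxp3, and 35 of the 65 were called doublets by Scrublet, against 64 of 1902. A TCR chain was found for 43.1% of them, against 89.1% of all CD8 T cells of that library. In mavrilimumab 2, 5 of the 19 had Cd4, against 13 of the 1859 CD8 T cells without Foxp3. Of the 19, 1 was called a doublet, against 84 of 1859, and 89.5% had a TCR chain, against 93.9% of all its CD8 T cells. Cd4 was thus found more often with Foxp3 in both libraries, while doublet calls and TCR chains differed between them. Of the 40 ILC of mavrilimumab 1, 32 had a UMI of Cd3d, Cd3g, Trac, Trbc1, Trbc2 or Cd4 and 45.0% had a TCR chain, so many of them carried T cell transcripts and receptors. Those 32 held 18 of the 19 Foxp3 UMIs of the class. One of those T cell genes was also found in 728 of 1407 ILC of vehicle IgG 2 and 44 of 68 of mavrilimumab 2, where Foxp3 stood at 1.51 and 1.11 CPM, and 5.88% of the latter had a TCR chain (no TCR library of vehicle IgG 2 was analysed here).

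The Ikaros-family members were less restricted. Ikzf2 was at 198, 163, 773 and 201 CPM in CD4 T cells of vehicle IgG 1, vehicle IgG 2, mavrilimumab 1 and mavrilimumab 2, and at 353, 195, 327 and 207 CPM in gamma-delta T cells. ILC held 124, 1201 and 182 CPM in vehicle IgG 2, mavrilimumab 1 and mavrilimumab 2. Its order from gamma-delta T through CD4 T, ILC, NK and CD8 T to microglia overlapped at every step. The high values were again those of mavrilimumab 1, where free RNA carried 532 CPM Ikzf2 against 41.3 to 124 CPM in the other libraries, and the part of free RNA in them was not tested. Ikzf4 was highest in ILC, at 133, 57.9 and 81.4 CPM in vehicle IgG 2, mavrilimumab 1 and mavrilimumab 2, against 16.9, 34.9, 47.2 and 19.4 CPM in the CD4 T cells of the 4 libraries, and these ranges did not overlap. The value of mavrilimumab 1 rests on 8 UMIs, and the 15 ILC of vehicle IgG 1, left out for their number, were at 23.9 CPM, inside the CD4 T range. The edgeR comparison of both classes described below did not call Ikzf4 (-1.28 ± 0.53 in CD4 T cells against ILC, edgeR FDR 0.181). Below CD4 T cells Ikzf4 overlapped at every step.

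The receptor genes were highest outside CD4 T cells or shared with other lymphocytes. Il2ra was at 92.9, 111, 89.0 and 83.4 CPM in CD4 T cells, at 341, 329, 211 and 149 CPM in gamma-delta T cells, and at 751, 181 and 379 CPM in the ILC of vehicle IgG 2, mavrilimumab 1 and mavrilimumab 2. Gamma-delta T cells lay above CD4 T cells, and CD4 T cells above NK cells (11.7 to 41.2 CPM), with no overlap, while ILC and gamma-delta T cells overlapped. Icos was at 189, 201, 375 and 212 CPM in CD4 T cells, 200, 239, 175 and 146 in gamma-delta T cells and 382, 441 and 312 in those ILC. These 3 classes overlapped along the order, and gamma-delta T cells lay above CD8 T cells (36.9 to 65.3 CPM), which lay above NK cells (15.9 to 33.0 CPM).

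The effector genes were sparse in CD4 T cells. Areg was at 0.844, 11.6, 12.3 and 2.46 CPM there, from 1, 4, 93 and 9 UMIs. ILC held 75.0% of all Areg UMIs in cells of vehicle IgG 1 (3 of 4), 74.4% in vehicle IgG 2 (476 of 640) and 71.9% in mavrilimumab 2 (69 of 96), although they were 1.24 to 5.26% of the cells. In mavrilimumab 1 the ILC rule found 1 Areg UMI of 182, and CD4 T cells held 51.1%. ILC levels were 65.2, 7.24 and 76.9 CPM in vehicle IgG 2, mavrilimumab 1 and mavrilimumab 2. Itgb8 was at 12.7, 37.8, 53.1 and 3.28 CPM in CD4 T cells. In vehicle IgG 2 it lay between 19.0 and 42.8 CPM in all 6 classes, free RNA carried 81.7 CPM, and 93.3% of its 7517 UMIs were in cells of no class. Lrrc32 was at 21.1, 5.82, 5.83 and 5.19 CPM in CD4 T cells, and 91.5% of its UMIs in vehicle IgG 2 were likewise in cells of no class. Its order over classes overlapped at every step. The part of neural or tumor RNA in the Itgb8 and Lrrc32 levels of vehicle IgG 2 was not tested.

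Classes were compared by edgeR's quasi-likelihood test, with library as a block and cells of a class added up within each library, over 13788 genes at a Benjamini-Hochberg false discovery rate (FDR) of 0.05. CD4 T cells were higher than CD8 T cells in 5 of the 8 genes, where 1.18% of all genes were called higher: Foxp3 by 5.38 ± 0.66 (log2 fold change ± SE, FDR 2.91e-04), Areg by 4.01 ± 0.86, Itgb8 by 2.62 ± 0.58, Il2ra by 2.29 ± 0.38 and Icos by 2.12 ± 0.33. Without mavrilimumab 1, Il2ra, Areg and Itgb8 were not called and 2 members were left, and without mavrilimumab 2, Icos, Il2ra and Itgb8 were not called and 2 were left. The share of all genes called in either direction was 0.499 and 0.284% in these fits, against 2.30% with all libraries. Itgb8 was also not called without vehicle IgG 1. Against gamma-delta T cells (10.5% of genes called in either direction), Foxp3 was higher in CD4 T cells by 4.85 ± 0.72 and Itgb8 by 2.91 ± 0.68, and Il2ra fell by 1.31 ± 0.36; without either mavrilimumab library only Foxp3 passed, and without vehicle IgG 1 Il2ra did not. Against ILC (5.98% called in either direction), Foxp3 was higher by 3.18 ± 0.75 and Il2ra lower, at -1.96 ± 0.41. Foxp3 was not called without vehicle IgG 2 (2.67 ± 0.86), and neither gene was without mavrilimumab 2. With the ILC limited to cells that lack the 6 T cell genes, Foxp3 also passed, without a fold change since those ILC held 3 Foxp3 UMIs in vehicle IgG 2 and 0 in mavrilimumab 2, and Areg passed at -3.65 ± 0.86.

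Against microglia, where 20.9% of all genes were called higher, 7 of the 8 genes were higher in CD4 T cells and Lrrc32 was not called (0.60 ± 0.92). Itgb8 was the marginal member (1.37 ± 0.56, edgeR FDR 0.0499) and was not called without vehicle IgG 1, mavrilimumab 1 or mavrilimumab 2. In all, 6 of the 8 genes were higher than in NK cells (4.7% called higher), among them Icos by 3.51 ± 0.43 and Il2ra by 2.54 ± 0.51; NK cells held at most 2 Foxp3 and 3 Areg UMIs in a library, so no fold change is given for these. That count fell to 3 without mavrilimumab 1 and to 1, Icos, without mavrilimumab 2, where 5.52 and 0.745% of all genes were called in either direction, against 9.10% with all libraries. Areg was not called without either vehicle IgG library and Itgb8 was not without vehicle IgG 1. Gamma-delta T cells were higher than CD8 T cells (4.67% called higher) in 3 genes, Il2ra by 3.60 ± 0.40, Icos by 1.75 ± 0.33 and Ikzf2 by 1.32 ± 0.36, of which Ikzf2 was not called without vehicle IgG 1, vehicle IgG 2 or mavrilimumab 2. ILC were higher than NK cells (3.45% called higher) in Il2ra by 4.50 ± 0.54, Icos by 4.04 ± 0.45, Ikzf4 by 3.47 ± 0.63 and Areg, and Ikzf4 was not called without mavrilimumab 2.

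Within CD4 T cells, the other 7 genes went with Foxp3. Il2ra was detected in 66.7, 42.9, 43.6 and 72.7% of Foxp3-detected cells of vehicle IgG 1, vehicle IgG 2, mavrilimumab 1 and mavrilimumab 2 and in 6.74, 10.9, 6.27 and 3.62% of the CD4 T cells without Foxp3. Ikzf2 was detected in 66.7, 85.7, 95.7 and 89.1% against 21.3, 17.3, 45.3 and 14.8%. Ikzf4 was detected in 41.7, 14.3, 39.3 and 43.6% against 7.87, 5.45, 5.97 and 6.69%. In each of the 4 libraries the share was higher with Foxp3 for all 7 genes at full depth, although the vehicle IgG shares rest on 12 and 7 Foxp3-detected cells, of which 4 of the 7 were called doublets, and their intervals are wide.

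Icos was the gene detected most often in CD4 T cells without Foxp3, with 91.7, 71.4, 78.4 and 76.4% against 52.8, 25.5, 53.1 and 47.4%. Itgb8 was detected in 33.3, 28.6, 31.3 and 9.09% against 3.37, 7.27, 7.39 and 1.39%. Lrrc32 was detected in 25.0, 14.3, 7.11 and 21.8% against 0, 0.909, 0.224 and 0.557%, where the 0 of 89 cells allows a share of up to 3.37%. Areg was detected in 8.33, 14.3, 7.82 and 7.27% against 0, 0.909, 1.72 and 0.279%. Where a gene this sparse was not detected in a cell, the cell may still express it.

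**Figure D3:**
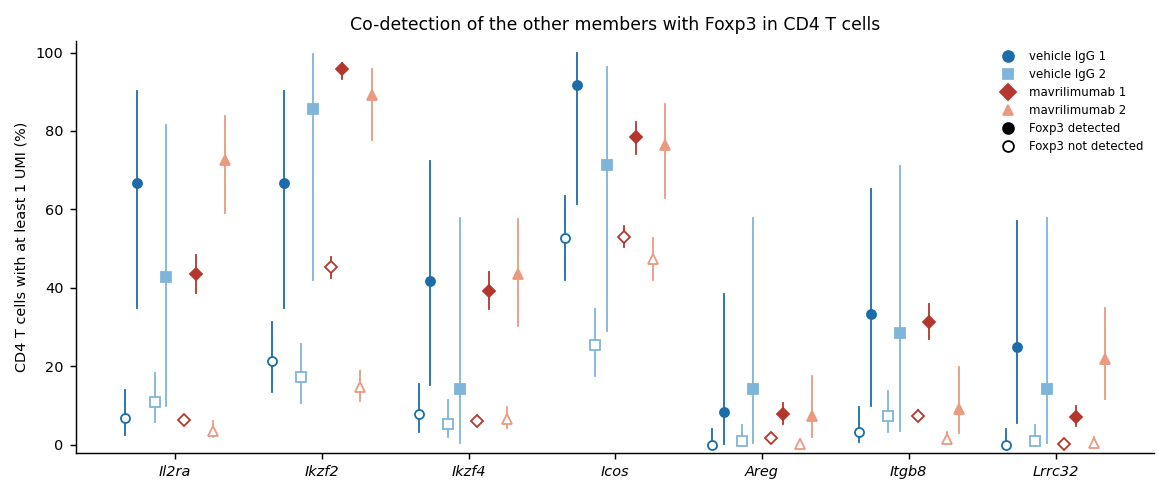
Percent of CD4 T cells with at least 1 UMI of each of the 7 other genes, in cells with Foxp3 (filled) and without (open); each symbol is 1 library and bars are exact 95% intervals. Filled symbols lie above the open symbol of the same library throughout, with Il2ra at 72.7 against 3.62% in mavrilimumab 2.

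Read the other way, the genes differed in how far they pointed to Foxp3. Of the CD4 T cells with Lrrc32, 90.9% in mavrilimumab 1 (30 of 33) and 85.7% in mavrilimumab 2 (12 of 14) had Foxp3. For Il2ra these shares were 68.7 and 75.5%, for Ikzf4 67.5 and 50.0%, for Itgb8 57.1 and 50.0%, for Areg 58.9 and 80.0%, for Ikzf2 40.0 and 48.0%, and for Icos 31.8 and 19.8%. In vehicle IgG 1 and 2, with few such cells, they were 100 and 50.0% for Lrrc32 and Areg, 57.1 and 20.0% for Il2ra and Itgb8, 41.7 and 14.3% for Ikzf4, 29.6 and 24.0% for Ikzf2, and 19.0 and 15.2% for Icos. At least 3 of the 7 genes were detected together in 66.7, 71.4, 68.2 and 80.0% of Foxp3-detected cells of the 4 libraries and in 5.62, 5.45, 9.40 and 3.06% of the others. Il2ra and Ikzf2 were detected in the same cell in 58.3, 42.9, 41.9 and 69.1% against 3.37, 6.36, 4.25 and 1.95%. Median UMIs per cell were 11582.5, 2546, 3654 and 7553 with Foxp3 and 11383, 2018.5, 3517.5 and 8278 without, so cells with Foxp3 were the deeper ones in 3 libraries and the shallower ones in mavrilimumab 2.

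With every cell thinned to 1000 UMIs, shares with Foxp3 stayed above those without in the mavrilimumab libraries for Ikzf2 (76.8 against 35.3% and 69.0 against 6.49%) and Il2ra (22.4 against 4.50% and 27.6 against 4.42%). No Itgb8 was left in either state in mavrilimumab 2. In the vehicle IgG libraries, with 6 and 3 Foxp3-detected cells after thinning, Ikzf2 and Icos were again higher with Foxp3, while Il2ra was in 0 of 6 against 4 of 95 cells and in 0 of 3 against 5 of 114, and in vehicle IgG 2 Areg, Itgb8 and Lrrc32 were also found only without Foxp3 (2, 4 and 1 of 114 cells). Thinning also removed the Foxp3 UMIs of 6 of 12 and 4 of 7 cells, which then counted as without Foxp3. With the Foxp3 state kept from full depth and only the other genes thinned, Il2ra was in 2 of 12 against 2 of 89 cells of vehicle IgG 1 and 1 of 7 against 4 of 110 of vehicle IgG 2, and in the latter Areg, Itgb8 and Lrrc32 were in 1 of 7 each against 1, 3 and 0 of 110. With so few cells these shares set no direction for the sparse genes in the vehicle IgG libraries. Among Foxp3-detected cells, Ikzf2 was in 96.2% of those with Il2ra and 95.4% of those without in mavrilimumab 1, and in 95 and 73.3% in mavrilimumab 2 (40 and 15 cells). Icos was in 79.3 and 77.7% in mavrilimumab 1 and in 77.5 and 73.3% in mavrilimumab 2.

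In mavrilimumab 1 and 2, the libraries with at least 20 cells in both states, counts summed by Foxp3 state were tested with edgeR over 10786 genes with library as a block. All 7 genes were higher with Foxp3, where 3.17% of all genes were called higher (342 higher and 186 lower). Lrrc32 and Areg, with few UMIs in cells without Foxp3, passed the filter on low counts through the cells with Foxp3. Once tested they could hardly come out lower, so their calls add no support and are given as a description. The same filter was used where vehicle IgG libraries were added. Il2ra was at 258 against 27.2 CPM in mavrilimumab 1 and 519 against 16.1 CPM in mavrilimumab 2 (log2 fold change 3.95 ± 0.28, edgeR FDR 1.25e-06). Ikzf2 was at 1647 against 453 and 1110 against 61.2 CPM (2.88 ± 0.37, FDR 1.72e-04), and Ikzf4 at 125 against 18.6 and 79.7 against 10.1 CPM (2.77 ± 0.21, FDR 1.48e-06). The cells without Foxp3 thus differed widely in Ikzf2 between the libraries, and the higher value was that of mavrilimumab 1, with 532 CPM Ikzf2 in free RNA. The ratio with Foxp3 to without was 9.50 in mavrilimumab 1 and 32.3 in mavrilimumab 2 for Il2ra, and 3.64 and 18.1 for Ikzf2. With 2 libraries, the standard errors rest largely on spread shared across genes. They do not show how far the 2 libraries agree. Icos was at 596 against 294 and 662 against 143 CPM (1.52 ± 0.23), Itgb8 at 119 against 29.1 and 14.3 against 1.58 CPM (2.13 ± 0.26), and Areg at 33.1 against 4.71 and 16.4 against 0.315 CPM. Areg had 1 UMI in the cells without Foxp3 of mavrilimumab 2, and its ratios were 7.04 (95% counting interval 4.41 to 11.5) and 51.8 (6.95 to 2300). Lrrc32 was at 20.3 against 0.543 and 32.7 against 0.946 CPM, and with 3 UMIs in the cells without Foxp3 of each library its ratios were 37.3 (95% counting interval 11.9 to 188) and 34.6 (9.89 to 185).

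The vehicle IgG libraries, not used in that fit, had 12 and 7 Foxp3-detected cells. In vehicle IgG 1 the ratio with Foxp3 to without was 14.0 for Il2ra (9.36 to 21.3), 18.0 for Ikzf2 (13.6 to 24.2) and 3.95 for Icos (2.96 to 5.25). In vehicle IgG 2 it was 6.31 for Ikzf2 (3.54 to 11.1) and 2.52 for Icos (1.32 to 4.52), while Il2ra gave 1.07 (0.275 to 2.99), from 4 and 34 UMIs. With vehicle IgG 1 added (a minimum of 10 cells), 7 of the 7 genes were higher (3.94% of all genes), and with both added (a minimum of 5 cells, chosen after the data were seen), 6 of the 6 tested were (4.09%). On cells thinned to 1000 UMIs Il2ra, Ikzf2, Ikzf4 and Icos passed, Itgb8 did not (1.24 ± 0.40, edgeR FDR 0.263) and Areg and Lrrc32 were too low to test. Without the library block none of the 7 passed, and with DESeq2 all but Ikzf2 did (adjusted p = 0.0975). Whether the difference with Foxp3 varied with treatment could not be fitted at 20 cells. At 10 cells the edgeR interaction called none of the 7 and 2 of 9646 genes (0.0207%), with 626 at an unadjusted p under 0.05, and at 5 cells none of the 6 tested and 7 of 8134 genes (0.0861%), with 337. DESeq2 was not run on the interaction.

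**Figure D4:**
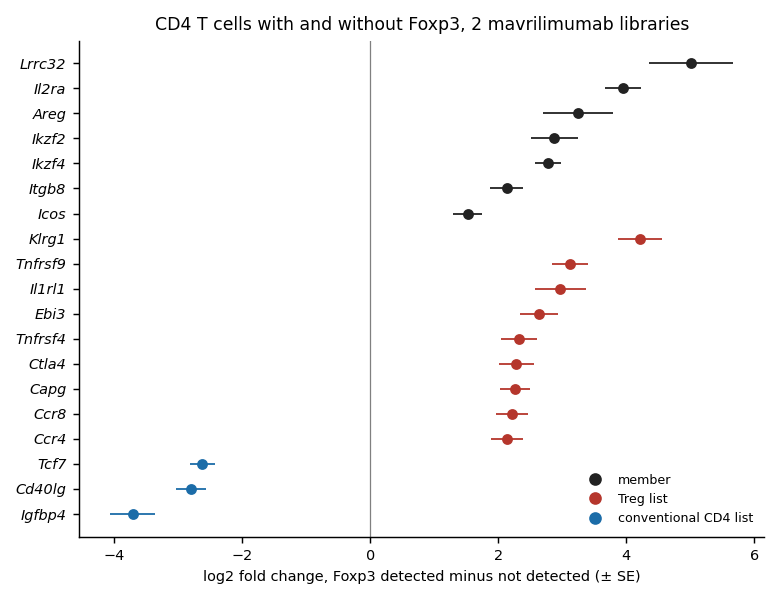
Log2 fold change, Foxp3 detected minus not detected, in CD4 T cells of the 2 mavrilimumab libraries, with bars of 1 SE, for the 7 genes (black) and 12 other genes of the Treg (red) and conventional CD4 (blue) lists. Among the 7, Icos lies nearest 0 at 1.52. Lrrc32 is drawn farthest right at 5.01, but with 3 UMIs without Foxp3 in each library its place is not secure.

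Along the number of Foxp3 UMIs, detection of Il2ra and Ikzf2 rose from 0 to 1 UMI in both mavrilimumab libraries. In mavrilimumab 2, Il2ra was detected in 3.62% of CD4 T cells with 0 Foxp3 UMIs, 44.4% with 1, 64.3% with 2 to 4 and 84.4% with 5 or more, and Ikzf2 in 14.8, 55.6, 85.7 and 100% (359, 9, 14 and 32 cells). In mavrilimumab 1 the step lay between 0 and 1 UMI: Il2ra went from 6.27 to 46.4, 38.4 and 51.1% and Ikzf2 from 45.3 to 96.0, 95.1 and 96.8% (1340, 125, 203 and 94 cells). Icos was in 53.1, 72.0, 76.4 and 91.5% of the cells along the steps of mavrilimumab 1. In mavrilimumab 2 it was in 47.4, 44.4, 78.6 and 84.4%, so it did not rise from 0 to 1 UMI there. In that library Itgb8 was in 0 of 9 cells with 1 UMI, and Areg in 0 of 9 with 1 and 0 of 14 with 2 to 4. Median UMIs per cell were 3517.5, 3409, 3363 and 4454.5 along these steps in mavrilimumab 1 and 8278, 7275, 6556 and 9416 in mavrilimumab 2, so the deepest cells were those with 5 or more Foxp3 UMIs.

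**Figure D5:**
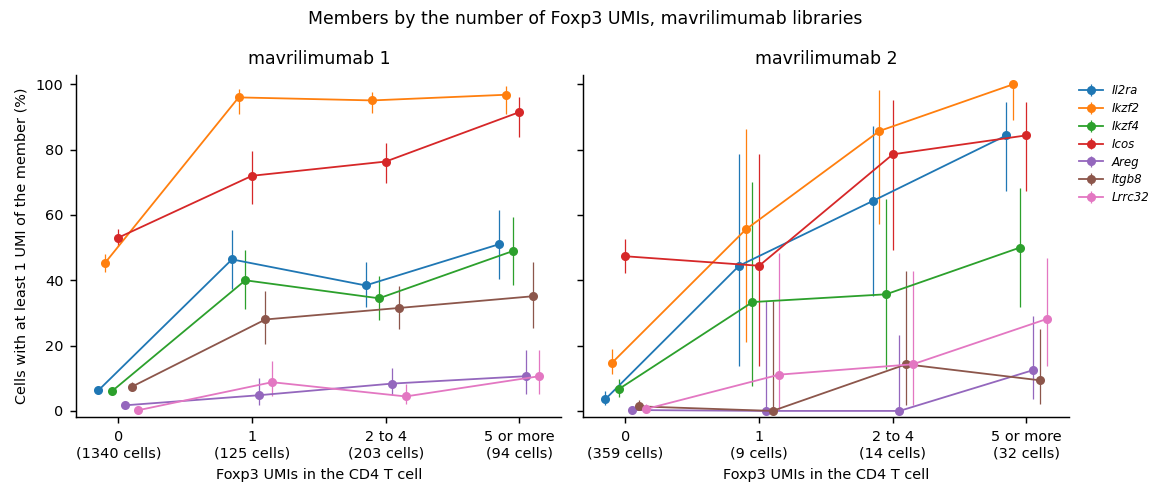
Percent of CD4 T cells with at least 1 UMI of each gene (y) by the number of Foxp3 UMIs in the cell (x), for mavrilimumab 1 and 2; bars are exact 95% intervals and cell numbers stand under the axis. Ikzf2 reaches 96.0% at 1 Foxp3 UMI in mavrilimumab 1 and 100% at 5 or more in mavrilimumab 2.

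Other genes of the Treg program were read from lists that were chosen with earlier results of these data known. Counts over these lists are therefore a description. Over all 10786 genes of this contrast, 342 were higher and 186 lower. In the same Foxp3 contrast, 21 of the 32 tested genes of a Treg list of 33 were higher, 1 was lower and 10 were not called, with a median log2 fold change of 1.33 against -0.01 over all genes. Among the list genes with a mean of at least 20 CPM, those with the largest changes were Klrg1, an inhibitory lectin receptor of effector Treg cells (4.22 ± 0.35), the TNF receptor family member Tnfrsf9 (3.13 ± 0.28), Il1rl1, the IL-33 receptor (2.97 ± 0.40), and Ebi3, a subunit of IL-35 (2.64 ± 0.30). They were followed by Tnfrsf4, of the same family as Tnfrsf9 (2.32 ± 0.28), the checkpoint receptor Ctla4 (2.28 ± 0.27), the actin-capping protein gene Capg (2.26 ± 0.24) and the chemokine receptors Ccr8 (2.22 ± 0.25) and Ccr4 (2.14 ± 0.24). Ctla4 was at 525 against 177 CPM in mavrilimumab 1, 660 against 69.7 in mavrilimumab 2, 639 against 80.1 in vehicle IgG 1 and 293 against 216 in vehicle IgG 2. Klrg1, at 51.9 against 5.79 and 270 against 5.99 CPM in the mavrilimumab libraries, was at 22.0 against 37.2 CPM in vehicle IgG 1, where 22.0 CPM is also the level of 3 UMIs. Ccr8 was under the level of 3 UMIs in the Foxp3-detected cells of both vehicle IgG libraries (22.0 and 87.8 CPM), so no direction is given for it there. The gene that was lower was Ikzf1 (-1.18 ± 0.18), the founding Ikaros factor.

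Of 14 tested genes of a conventional CD4 list of 15, none was higher, 11 were lower and 3 were not called, with a median of -1.44. Among all 10786 genes, 186 were lower. This list, too, was chosen with earlier results of these data known. Tcf7, a factor of naive and memory T cells, was at 61.3 against 382 CPM in mavrilimumab 1 and 131 against 723 CPM in mavrilimumab 2 (-2.63 ± 0.19), Cd40lg, the helper ligand for CD40, at 16.8 against 154 and 42.9 against 181 CPM (-2.80 ± 0.23), and Igfbp4 at 5.93 against 34.4 and 14.3 against 366 CPM (-3.72 ± 0.35). In the vehicle IgG libraries Tcf7 was at 169 against 831 CPM in the first and 0 against 481 CPM in the second, where 3 UMIs are 87.8 CPM. In the first, Cd40lg was at 58.8 against 189 CPM and Igfbp4 at 51.4 against 354 CPM, and in the second both were under the level of 3 UMIs with Foxp3. A list of 12 ligand, receptor and chain partners of the 8 genes, 4 of them also on the other lists, gave 2 higher, 2 lower and 5 not called of 9 tested, with a median of 0.53: the TGF-beta receptor gene Tgfbr1 (1.42 ± 0.19) and the integrin chain Itgav (0.79 ± 0.18) were higher, and Il2 and Tgfbr2 (-0.76 ± 0.17) lower. Of markers of other cells, 4 of 7 tested ILC genes (Areg, Il1rl1, Klrg1 and Rora, of which Areg is one of the 8 and Il1rl1 and Klrg1 are on the Treg list) were higher with Foxp3 and 2 (Id2 and Il7r) lower. Higher were also 2 of 8 tested microglia genes (Tmem119 and Siglech), 1 of 2 B cell genes (Cd79b), 1 of 6 NK genes (Tyrobp), 1 of 4 gamma-delta T genes (Blk) and 1 of 3 monocyte genes (Ccr2), while 1 monocyte gene (Ly6c2) and 2 of 3 CD8 T genes (Gzmk and Nkg7) were lower. The summed microglia markers were at 1010 against 1036 CPM in mavrilimumab 1 and 1703 against 1515 CPM in mavrilimumab 2, and the part of other cells in the contrast was not tested.

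The treatment comparison asked whether blocking the GM-CSF receptor changed these genes within a class. In CD4 T cells 0 of the 8 genes and 0% of 10702 genes passed edgeR, with 319 genes at an unadjusted p under 0.05 and 6 called by DESeq2. Foxp3 was 1.02 ± 0.58 higher in mavrilimumab on the log2 scale, Ikzf2 1.49 ± 0.64 and Icos 0.66 ± 0.34, and Il2ra stood at -0.15 ± 0.24, each with an FDR of 1.00. The Ikzf2 and Icos values rest mostly on mavrilimumab 1, at 773 and 375 CPM. Mavrilimumab 2 was at 201 and 212 CPM, against at most 198 and 201 CPM in vehicle IgG. None of the members tested passed in CD8 T cells (7 tested, 0% of 12410 genes called, 524 unadjusted, 28 by DESeq2) or gamma-delta T cells (4 tested, 0% of 9459, 899 and 57). The same held in microglia (6 tested, 0% of 13601, 235 and 12) and in CD4 T cells without Foxp3 (5 tested, 0% of 10400, 306 and 13). The other members did not pass the filter on low counts in these classes. Some of these counts of 0 changed with the filter on low counts and with the vehicle IgG libraries. With no filter, edgeR called 340 genes in CD4 T cells (none of the 8), 1025 in gamma-delta T cells (with Il2ra lower and Foxp3 higher) and 372 in CD4 T cells without Foxp3 (with Ikzf2 higher and Il2ra lower). Without vehicle IgG 1 it called 827 in gamma-delta T cells and 4587 in microglia, and without vehicle IgG 2 it called 365 in microglia. DESeq2 called Ikzf2 in CD8 T cells (0.98 ± 0.25, adjusted p = 0.0494). Without vehicle IgG 1, 4 members, Il2ra, Ikzf4, Itgb8 and Lrrc32, were called lower in microglia against vehicle IgG 2 alone, where 17.8% of all genes were, with Itgb8 at -3.63 ± 0.37.

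Of 32 pairs of gene and class with 2 libraries per treatment, 4 lay higher in mavrilimumab without overlap, where 12.2% of all 83078 pairs did, 5 lay lower, where 13.9% did, and 23 overlapped. These counts are near the background, and the values that follow are given as a description. Ikzf2 was at 62.6 and 68.1 CPM in vehicle IgG and 116 and 136 CPM in mavrilimumab CD8 T cells. Il2ra was at 329 and 341 CPM in vehicle IgG and 149 and 211 CPM in mavrilimumab gamma-delta T cells (-0.86 ± 0.22, edgeR FDR 0.361). The make-up of this class differed between the groups. Its 5 CD8 T marker genes together were at 745 and 467 CPM in vehicle IgG 1 and 2. They were at 2064 and 2680 CPM in mavrilimumab 1 and 2. The part of other T cells in its Il2ra and Icos levels was not tested. The other pairs without overlap were Il2ra in CD8 T and CD4 T cells, Ikzf2 and Icos in CD4 T cells, Icos in gamma-delta T cells, Lrrc32 in CD8 T cells, and Foxp3 in gamma-delta T cells, at 0 in both vehicle IgG libraries and 3.70 and 21.0 CPM in mavrilimumab. Of the 9 Foxp3-detected gamma-delta T cells of mavrilimumab 1, 7 had Cd4 and 7 also met another class rule, as did 2 and 2 of the 3 in mavrilimumab 2.

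ILC and NK cells had 1 vehicle IgG library with at least 20 cells, vehicle IgG 2, against 2 of mavrilimumab, so a fit there sets that library against the others and gives no spread among vehicle IgG libraries. In ILC (2.19% of genes called higher), Foxp3 was at 1.51 CPM in vehicle IgG 2, 138 in mavrilimumab 1 and 1.11 in mavrilimumab 2, and edgeR called it (4.86 ± 0.98, FDR 3.04e-05). The 2 mavrilimumab libraries lay on either side of vehicle IgG 2, and the high value came from the library in which 45.0% of the ILC had a TCR chain. With vehicle IgG 1 added (a minimum of 10 cells), edgeR called 0 of 7837 genes (212 at an unadjusted p under 0.05; DESeq2 was not run at 10 cells) and Foxp3 was too low to test, and at 20 cells Foxp3 was not called with DESeq2 (adjusted p = 0.0675) or with RLE size factors (FDR 0.224). These values show no direction of Foxp3 between treatments in ILC. In NK cells (10% called lower), Itgb8 was at 24.9 CPM in vehicle IgG 2, the library where every class held Itgb8, against 0 CPM in mavrilimumab 1, with 20 NK cells, and 0.397 CPM in mavrilimumab 2. edgeR called it (FDR 5.65e-05), DESeq2 did not (adjusted p = 0.529), and with 1 vehicle IgG library no direction between treatments is read from it. None of the genes of the Treg, conventional CD4 and partner lists was called between treatments in CD4 T cells (30, 14 and 10 tested), with medians of 0.63, -0.10 and 0.19.

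Over the 22 sums of a library and class with at least 20 cells, the genes most like each member were ranked among 9838 genes by Pearson's r of log2(CPM + 10). These sums share libraries, depth and free RNA, so r is a description. Foxp3 was most like Izumo1r, the folate receptor family member FR4 of Treg cells (r = 0.945), Cd4 (0.932), which the class rule uses, and Tbc1d4 (0.911). Il2ra was most like Tnfrsf25 (0.916), the receptor for TL1A, and Icos like the chemokine receptor Ccr4 (0.911). Areg was most like 1700061F12Rik (0.949), the type 2 cytokine Il13 (0.946) and Chdh (0.945), and Ikzf4 like Neb (0.945), Ptpn13 (0.912) and Ccr8 (0.878). Ikzf2 was most like Tmem154 (0.892). Itgb8 was most like Syt11 (0.926) and Gpm6b (0.912), both neural genes, and Lrrc32 had the weakest likeness, with Gsn (0.815), an actin-severing protein gene.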

How the data were processed

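The authors deposited unfiltered count matrices of UMI counts per gene and droplet barcode; per the file headers they were made with Cell Ranger 9.0.1, while the labels' processing notes name Cell Ranger 7.1.0, Scanpy 1.8.2 and mm10. Deposited TCR contig tables were used for barcodes, for productive chains of high confidence and for the sample names inside them. The 8 members and all gene lists were chosen with earlier results of these data known. Cells and classes were taken by the rules in the report, a cell could meet several, no doublets were removed in the main analysis, and gene symbols are those of the matrices. Counts were summed per library and class (at least 20 cells) and tested with edgeR 4.0.16 (quasi-likelihood, TMM, filterByExpr, FDR 0.05) in R 4.3.3, separately per class for treatment and with library as a block for classes and for Foxp3 states. Each standard error is the fold change over the square root of F. Shares have exact (Clopper-Pearson) 95% intervals, and a UMI count of 0 was read as allowing up to 3 UMIs of the total. CPM intervals are exact Poisson. Shares between treatments were compared by exact permutation over libraries. Named genes were up to 12 of the lists with the largest absolute log2 fold change past the FDR and a mean CPM of at least 20. Scripts were tested on simulated data. Alternatives were a minimum of 2000 UMIs, cells of exactly 1 class, Scrublet doublets removed (scanpy 1.11.5, 0.8% per 1000 cells), cells thinned to 1000 UMIs, Foxp3 at 2 UMIs, ILC without T cell genes, RLE size factors, no filter on low counts, DESeq2 1.42.0, minimums of 10 and 5 cells, each library left out, the library block dropped and, for treatment, the replicate number added as a block. Precision is set by 2 libraries per group. Sequences are RefSeq windows of GRCm38.p6, matched by symbol.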

Additional observations from a re-analysis of the deposited data

Results flagged for a closer look

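Icos was picked out because its ranges did not overlap between treatments in 2 classes of T cells, in opposite directions. Its mean level was 98.5 CPM higher in mavrilimumab in CD4 T cells, from 189 and 201 CPM in the vehicle IgG libraries to 375 and 212 CPM, and -58.4 CPM apart in gamma-delta T cells, from 200 and 239 CPM to 175 and 146 CPM. Every mavrilimumab library lay above both vehicle IgG libraries in the first class and below both in the second, which is the rule that picked the gene. The difference between the classes was not tested, and neither change passed edgeR within its class. The gamma-delta T rule does not exclude CD8 T cells. In vehicle IgG 1 and 2, 2 of 30 and 13 of 385 gamma-delta T cells met another class rule. In mavrilimumab 1 and 2, 28 of 197 and 44 of 239 did. Their 5 CD8 T marker genes together were at 745, 467, 2064 and 2680 CPM in that order. The part of other T cells in these Icos levels was not tested. Ranges of the treatments did not overlap for 12.2% (higher) and 13.9% (lower) of all pairs of gene and class.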

How the results depend on the processing

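Over 44 differences of single genes followed across the alternatives, mostly those called in the main analysis, 484 values under an alternative kept their direction and their side of the threshold, 73 kept the direction but were no longer called, 1 was newly called (Il2ra in gamma-delta T cells with no filter on low counts) and none reversed. Genes outside these 44 were newly called under some alternatives, as the counts that follow show. The 7 genes called with Foxp3 (4.90% of all genes called in either direction) became 4 with cells thinned to 1000 UMIs (1.05%), and 0 with no library block (0.00927%). The fits of Foxp3 state and of classes were blocked on the library, not on the replicate number. With either vehicle IgG library left out the count was 7, since these are not in that fit, and without a mavrilimumab library it could not be fitted. For class contrasts, dropping this library block gave 1 of 5 members (CD4 T against CD8 T), 0 of 3 (gamma-delta T), 1 of 6 (NK), 1 of 2 (ILC) and 2 of 4 (ILC against NK). The share of all genes called in either direction fell as well, in that order from 2.30, 10.5, 9.10, 5.98 and 5.83% to 0.189, 3.39, 4.09, 1.25 and 0.965%. Removing Scrublet doublets gave 5 for CD4 T against gamma-delta T (11.8% of all genes called) and 4 against ILC (8.08%). A minimum of 2000 UMIs and thinning each gave 3 of 6 against NK (6.41 and 8.35% of all genes called). With 1 library left out the counts ran from 2 to 5 (CD8 T), 1 to 3 (gamma-delta T), 1 to 5 (NK), 0 to 3 (ILC), 6 to 7 (microglia), 2 to 3 (gamma-delta T against CD8 T) and 3 to 4 (ILC against NK). In that order the share of all genes called ran from 0.284 to 4.72%, 3.16 to 13.4%, 0.745 to 10.6%, 0.0844 to 5.16%, 34.0 to 56.2%, 3.83 to 8.20% and 0.660 to 5.67%. The 2 calls between treatments (Itgb8 in NK cells and Foxp3 in ILC, each with 1 vehicle IgG library) became 1 with a minimum of 2000 UMIs, where NK cells could not be fitted, 1 with doublets removed, where Itgb8 was too low to test, 1 with RLE size factors, 1 with DESeq2, which called neither of them but Ikzf2 in CD8 T cells, and 1 with a minimum of 10 cells. They became 0 when thinned, where neither gene passed the filter on low counts, and 7 with no filter on low counts. With 1 library left out the count ran from 0 to 6; at 0, NK cells and ILC could not be fitted. Genes called over all genes moved by more than 1.5 times in some fits: with Foxp3 from 528 to 144 by DESeq2, 215 with doublets removed, 61 thinned and 1 with no library block, in CD4 T against CD8 T from 317 to 602 by DESeq2 and 26 with no library block, and between treatments from 1231 to 206 in NK cells and from 767 to 195 in ILC by DESeq2. Without mavrilimumab 2 the counts fell from 1255 to 97 against NK, from 824 to 11 against ILC and from 317 to 37 against CD8 T for CD4 T cells. The counts of 0 between treatments became 340 (CD4 T) and 1025 (gamma-delta T) of 19688 and 18382 genes with no filter on low counts, and 827 (gamma-delta T) and 4587 (microglia) without vehicle IgG 1. Other counts moved by more than 1.5 times as well. Where no reason is given the cause was not tested. The difference in Foxp3 share stayed positive under all alternatives run, and was 4.35 to 15 percentage points with 1 library left out.

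Whether replicate numbers pair the samples was not settled. The deviations of same-numbered libraries correlated at 0.295, 0.101, 0.0252 and 0.213 in CD8 T, CD4 T, gamma-delta T cells and microglia. With only 2 pairs, these values can neither show nor exclude pairing. With the replicate number, and not the library, as a block, 0 members were called between treatments (NK cells and ILC could not be fitted), and 9 genes were called in gamma-delta T cells. The interaction of treatment with Foxp3 could be fitted only at a minimum of 10 cells (2 of 9646 genes) or 5 cells (7 of 8134 genes). Areg, Lrrc32 and Itgb8 are limited by few UMIs, and the vehicle IgG libraries by few CD4 T cells (101 and 117), of which 12 and 7 had Foxp3.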
